A study of Oncorhynchus mykiss with 6 samples.

Results

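miR-26 is a small family of vertebrate microRNAs (miRNAs), and its members in the liver of rainbow trout (Oncorhynchus mykiss) are described here. Every sequence of the deposited table whose name holds miR-26 as a whole number was taken, which gave 21 of 1389 sequences, and no measured value was used to choose them. Livers came from juvenile wild type fish with the strain label Walbaum, which had been held with 1 other trout for 4 d and were classed as socially subordinate (SS, 3 fish) or socially dominant (SD, 3 fish). Each fish gave 1 small RNA library, so p-values set group differences against the spread between 3 fish per group. The edgeR test used below for single sequences also pools information on this spread over all tested sequences. By the study's account SD fish took nearly all of the food, SS fish in effect fasted and had more plasma cortisol, so status, feeding and cortisol cannot be told apart.

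A miRNA precursor folds into a hairpin that is cut into a 5p and a 3p strand, and as a rule 1 strand is loaded into an Argonaute protein while the other is lost. The loaded strand pairs with mRNAs mainly through its seed, bases 2 to 8 from the 5′ end, and lowers their translation and stability. In mammals miR-26a is abundant in the liver, where it restrains the cell cycle and has been linked to insulin sensitivity and to glucose and lipid metabolism, and miR-26 genes lie in introns of the CTDSP genes, which encode small phosphatases.

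The sequences below carry most of the miR-26 reads and show where the members differ. They are written 5′ to 3′ with T for U, as deposited, and bases 2 to 8 are in capitals. A name opens with the fish whose miRNA was matched (ssa for Atlantic salmon, dre for zebrafish, ola for medaka, ipu for channel catfish and hhi for Atlantic halibut), and L or R with a number gives the bases gained or lost at the 5′ or 3′ end.
ssa-miR-26a-5p: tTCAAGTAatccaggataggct
ssa-miR-26b-5p_R-2: tTCAAGTAatccaggatagg
ssa-miR-26d-5p: tTCAAGTAatctaggataggct
dre-miR-26a-5p_R+2: tTCAAGTAatccaggataggcttt
dre-miR-26b_L+1R-1: aTTCAAGTaatccaggataggt
dre-miR-26a-5p_L+2: tCTTCAAGtaatccaggataggct
ssa-miR-26b-3p: cCTATTCTgcatgacttggttc
ssa-miR-26a-3p: cCTATTCTcgattacttgtttc
ssa-miR-26a-4-3p: cCTATTCTtgattacttgtttc

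The 5p sequences are nearly 1 molecule. miR-26d-5p differs from miR-26a-5p by C12T, counted from the 5′ end of miR-26a-5p, and miR-26b-5p, which reads tTCAAGTAatccaggataggtt in the same register, first parts from miR-26a-5p at base 21. The form named ssa-miR-26b-5p_R-2 ends at base 20. Its letters are therefore the start of miR-26a-5p and of miR-26b-5p alike, and its reads cannot be assigned to either. The added 5′ base of dre-miR-26b_L+1R-1 moves its bases 2 to 8 to TTCAAGT, and the 2 added bases of dre-miR-26a-5p_L+2 move them to CTTCAAG. The 3p sequences differ more. miR-26a-3p departs from miR-26b-3p by G9C, C10G, G13T and G19T, all outside the shared seed CTATTCT, and ssa-miR-26a-4-3p departs from ssa-miR-26a-3p by C9T.

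The seed TCAAGTA stood at bases 2 to 8 of 7 of the 1389 sequences (0.504%), and all 7 were miR-26 members. It stood anywhere in 11 sequences (0.792%), again with no sequence from outside the family. Of the reads on the 5p arm, 99.8% carried TCAAGTA as their seed and 0.129% carried TTCAAGT. On the 3p arm, CTATTCT led 3 sequences with 430.5 reads, CTGTTCT 1 sequence with 28.5 reads and CTGTTCA 1 sequence with 20 reads. The remaining 3p seed, CTATTCG, led 1 sequence with 3.5 reads.

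Values were deposited as estimated counts, where sequences that fit a read equally well split it, and as normalized reads, which are these counts divided by a size parameter of each library (0.694 to 1.77). Libraries held 1183289 to 3382970 reads in the table, from 2420009 to 6061431 mappable reads, and 14 of the 21 miR-26 sequences had a fractional count in at least 1 library, so the split between near-identical forms is uncertain. The hepatocyte miRNA miR-122 was the most abundant sequence of the table, as dre-miR-122_R-1 with 37.5% of the reads. Marker lists overlapped between the groups. The 11 hepatocyte sequences summed to 576193 to 813536 normalized reads in SS and 597730 to 702931 in SD fish, the 8 erythrocyte sequences to 1822 to 7856 and 4950 to 6719, the 18 leukocyte sequences to 1833 to 2173 and 1585 to 2517, the 4 endothelial sequences to 15357 to 26223 and 15920 to 19380, and the 29 stromal sequences to 75368 to 103299 and 81191 to 98419. None of these sequences was at 0 in all libraries, and their part in the values below was not tested. In liver tissue, fewer cells of a type and less RNA per cell cannot be told apart.

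The family had 232842 reads over the 6 libraries, and 1 sequence held most of them. ssa-miR-26a-5p, the full 22-nt mature strand, had 211547 reads, or 90.9% of the family. It was the ninth sequence of the whole table with 1.86% of all reads, and ranked 11, 9 and 12 in the SS libraries and 8 in each of the 3 SD libraries. The 5 miR-26a sequences of the 5p arm together had 91.1% of the family reads, the 4 named miR-26b 8.40% and the single miR-26d sequence 0.295%. Nearly all of the miR-26b reads were the 20-nt form whose letters fit miR-26a as well. It held 8.27% of the family reads, and the other 3 miR-26b sequences held 0.134%. The 6 sequences of the 3p arm had 482.5 reads, or 0.207% of the family. A further 3 sequences, with 6 reads together, were other fragments of a miR-26 precursor, and 2 sequences with 22.25 reads were 5p forms named miR-26 without a letter.

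Lengths ran from 15 to 28 nt, and 9 of the 21 sequences had 22 nt. The 12 sequences with at least 10 reads in all were the 12 that were found in every library. The other 9 had 0.5 to 8.5 reads each and 28 reads together, and 2 of the 21 sequences occurred in 1 library only. These rare forms were below what the depth could compare. A count of 0 allows up to 0.000254% of the table reads in the shallowest library, SD replicate 4B, and up to 8.87e-05% in the deepest, SD replicate 21A. The limit is 3 reads in each and covers counting error only.

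The study asked which hepatic miRNAs differ with social status, and for miR-26 the comparison is SS against SD fish. No miR-26 sequence changed past the test. The main form, ssa-miR-26a-5p, was at 27188 normalized reads in SS replicate 4A, 34190 in 6A and 26949 in 1B. In the SD fish it was at 28303 (4B), 37408 (6B) and 41213 (21A), and values below keep this order of the fish. The highest SS fish lay between the lowest SD fish and the other two, so the groups overlapped. The log2 fold change was -0.30 with a standard error of 0.19 and a 95% interval from -0.75 to 0.15 (edgeR quasi-likelihood test, unadjusted p = 0.160, adjusted p = 0.533).

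The shared 20-nt form, ssa-miR-26b-5p_R-2, was the next most abundant with 19248 reads. It stood at 3287, 2584 and 2618 normalized reads in the SS and at 2766, 3021 and 3384 in the SD fish. SS replicate 4A was close to the highest SD fish and the other SS fish lay below every SD fish. The means were 2830 ± 397 in SS and 3057 ± 310 in SD fish (± standard deviation, n = 3 each). The log2 fold change was -0.13 with a 95% interval from -0.60 to 0.34 (edgeR, adjusted p = 0.802).

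ssa-miR-26d-5p, the 1-base relative of miR-26a-5p, had 88.6, 138.7 and 82.7 normalized reads in SS and 91.7, 117.0 and 128.0 in SD fish. SS replicate 6A was the highest of the 6 and the other SS fish were the lowest. Its log2 fold change was -0.16 with a 95% interval from -0.87 to 0.55 (edgeR, adjusted p = 0.845), and it ran from -0.41 without SS replicate 6A to -0.04 without SS replicate 4A.

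The form of miR-26a-5p with 2 more bases at its 3′ end, dre-miR-26a-5p_R+2, had 64.6, 73.2 and 65.6 normalized reads in SS and 90.6, 78.2 and 91.1 in SD fish. Every SS fish was below every SD fish, with the smallest gap between SS replicate 6A and SD replicate 6B. Its log2 fold change was -0.37 with a 95% interval from -0.98 to 0.24 (edgeR, adjusted p = 0.589). The form with 1 more base at its 5′ end, dre-miR-26b_L+1R-1, was the only tested member with a value above 0. It had 52.5, 43.7 and 48.5 normalized reads in SS and 48.1, 36.7 and 48.5 in SD fish, which overlapped, and its log2 fold change was 0.10 with a 95% interval from -0.62 to 0.81 (edgeR, adjusted p = 0.911).

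On the 3p arm, ssa-miR-26b-3p had 25.96, 27.37 and 26.62 normalized reads in SS and 34.3, 33.0 and 40.0 in SD fish, from counts of 32, 19 and 28 against 27, 27 and 71. The SS fish were close to each other and all lay below the SD fish. ssa-miR-26a-3p had 25.96, 21.6 and 19.0 normalized reads in SS and 41.9, 33.0 and 24.2 in SD fish, so SD replicate 21A fell inside the SS range. The log2 fold changes were -0.45 with a 95% interval from -1.17 to 0.27 for miR-26b-3p (edgeR, adjusted p = 0.589) and -0.58 with an interval from -1.42 to 0.26 for miR-26a-3p (edgeR, adjusted p = 0.533).

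**Figure D1:**
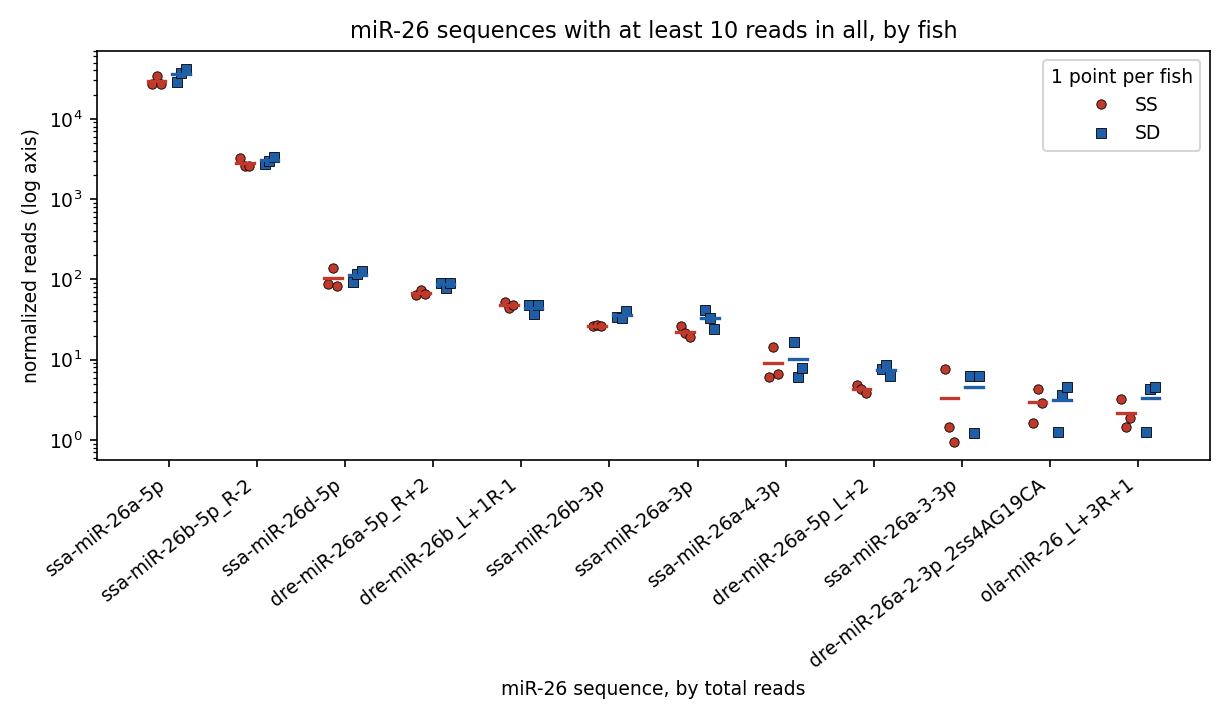
Normalized reads (log axis) of the 12 miR-26 sequences with at least 10 reads in all, ordered by total reads, with 1 point per fish and a line at the mean of 3 fish. ssa-miR-26a-5p lies far above the next form in every fish, and SS and SD points overlap for all but dre-miR-26a-5p_R+2, ssa-miR-26b-3p and dre-miR-26a-5p_L+2. In these every SS fish is below every SD fish, as in 7.69% of the 338 tested sequences, which leave out dre-miR-26a-5p_L+2.

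The remaining sequences with at least 10 reads had too few to pass the filter on low counts. ssa-miR-26a-4-3p had 6.09, 14.4 and 6.66 normalized reads in SS and 16.5, 6.11 and 7.89 in SD fish. dre-miR-26a-5p_L+2, with 37 reads in all, had 4.87, 4.32 and 3.80 in SS and 7.62, 8.56 and 6.20 in SD fish. These values came from counts of only 6, 3 and 4 in SS and 6, 7 and 11 in SD fish. ssa-miR-26a-4-3p overlapped between the groups, and dre-miR-26a-5p_L+2 did not on any of the 4 scales described below. These scales only rescale the same few counts by library, so they are not separate support. Such a separation, with SS below SD, occurred in 7.69% (normalized reads) to 12.1% (share of the mappable reads) of the 338 tested sequences. dre-miR-26a-5p_L+2 is not among those 338. The other 3, namely ssa-miR-26a-3-3p, dre-miR-26a-2-3p_2ss4AG19CA and ola-miR-26_L+3R+1, had 28.5, 20 and 19.5 reads in all and overlapped between the groups.

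Of the 21 members 7 passed the filter and were tested, and 14 were not. None of the 7 was past the adjusted threshold of 0.05 in edgeR, where 2 of all 338 tested sequences (0.592%) were. None had an unadjusted p under 0.05 in edgeR, where 37 of 338 (10.9%) did, and their unadjusted p-values ran from 0.151 to 0.759. DESeq2 called 7 of all 338 tested sequences, with 36 at an unadjusted p under 0.05. limma called 2 of 338, with 33 at an unadjusted p under 0.05, whether 1 or 10 was added to the normalized reads. Of the 7 members both methods called 0, with 0 at an unadjusted p under 0.05. Of the 7 log2 fold changes 6 were below 0, with a median of -0.30, against 170 of 338 below 0 and a median of -0.02 over all tested sequences. The 5p forms among these share reads and are not separate measurements. In normalized reads every SS fish was below every SD fish for 2 of the 7 members, against 7.69% of the tested sequences. The opposite separation occurred in 0 of the 7, against 10.7% of the tested sequences.

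**Figure D2:**
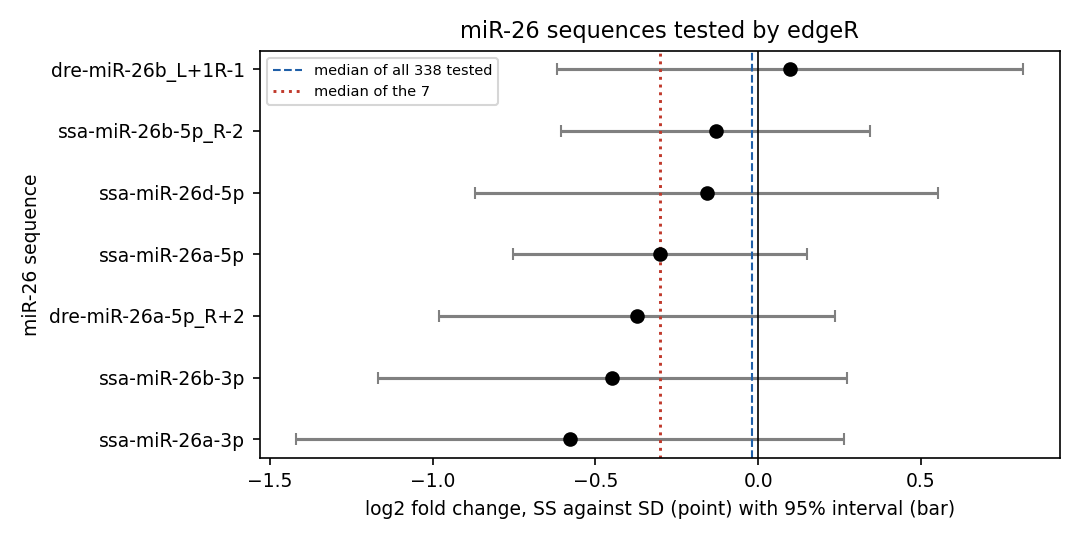
Log2 fold change of SS against SD fish (point) with its 95% interval (bar) for the 7 miR-26 sequences tested by edgeR, with dashed and dotted lines at the median of all 338 tested sequences (-0.02) and of the 7 (-0.30). Each interval spans 0, and 6 of the 7 points lie below it.

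The family as a whole was summed in each library, which removes the sharing of reads among its members. In normalized reads the sum was 30762, 37114 and 29828 in SS and 31412, 40755 and 44962 in SD fish. The means were 32568 ± 3965 in SS and 39043 ± 6935 in SD fish (± standard deviation, n = 3 each), a log2 difference of -0.25. The groups overlapped (two-sided exact permutation test, p = 0.2, where 0.1 is the smallest p that 3 against 3 fish can give).

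Whether the groups overlapped turned on the scale. The shares of the table reads and of the mappable reads were chosen after seeing the data. Adjusted p-values cover the 6 sums within 1 scale and not the choice among scales. As a share of the reads in the table, the family made up 1.76%, 1.76% and 1.85% in SS and 2.09%, 2.20% and 2.36% in SD fish. Here every SS fish was below every SD fish, with means of 1.79% ± 0.0527 in SS and 2.22% ± 0.135 in SD fish (± standard deviation, n = 3 each). The log2 difference of the family was -0.31 (exact permutation test, p = 0.1, adjusted p = 0.2 over 6 sums). As a share of the mappable reads it made up 0.813%, 0.596% and 0.959% in SS and 1.02%, 1.04% and 1.32% in SD fish, a log2 difference of -0.53 (exact permutation test, p = 0.1, adjusted p = 0.15 over 6 sums). In CPM, edgeR's depth-scaled counts after TMM (trimmed mean of M-values) correction, it was at 17413, 20085 and 16965 in SS and at 17532, 23666 and 25271 in SD fish, which overlapped (log2 difference of -0.27, exact permutation test, p = 0.2).

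Changing the scale shifts the log2 difference of every sequence by the same amount. The median log2 difference over the 335 tested sequences with reads in every library was -0.03 in normalized reads, -0.05 in CPM, -0.08 as a share of the table and -0.30 as a share of the mappable reads, and the distance of the family from that median, -0.23, is the same on each by construction. The fish that decided the overlap were SS replicate 6A and SD replicate 4B. Their table reads divided by the size parameter were the highest and the lowest of the 6, at 2114400 and 1503650, so the scales part most in these fish. ssa-miR-26a-5p held 90.9% of the family reads and so largely set the sum. It had 1.55%, 1.62% and 1.67% of the table reads in SS and 1.88%, 2.02% and 2.16% in SD fish. In percent of the table reads, SS values lay wholly below SD values for 3 of the 7 tested members, against 10.9% of the 338, and these were miR-26a-5p, dre-miR-26a-5p_R+2 and miR-26b-3p. As a share of the mappable reads there were again 3, but they were miR-26a-5p, miR-26d-5p and miR-26a-3p, while dre-miR-26a-5p_R+2 and miR-26b-3p overlapped. The split of all tested sequences moved as well, from 26 with every SS fish below and 36 with every SS fish above in normalized reads to 37 and 26 in percent of the table and to 41 and 7 as a share of the mappable reads.

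**Figure D3:**
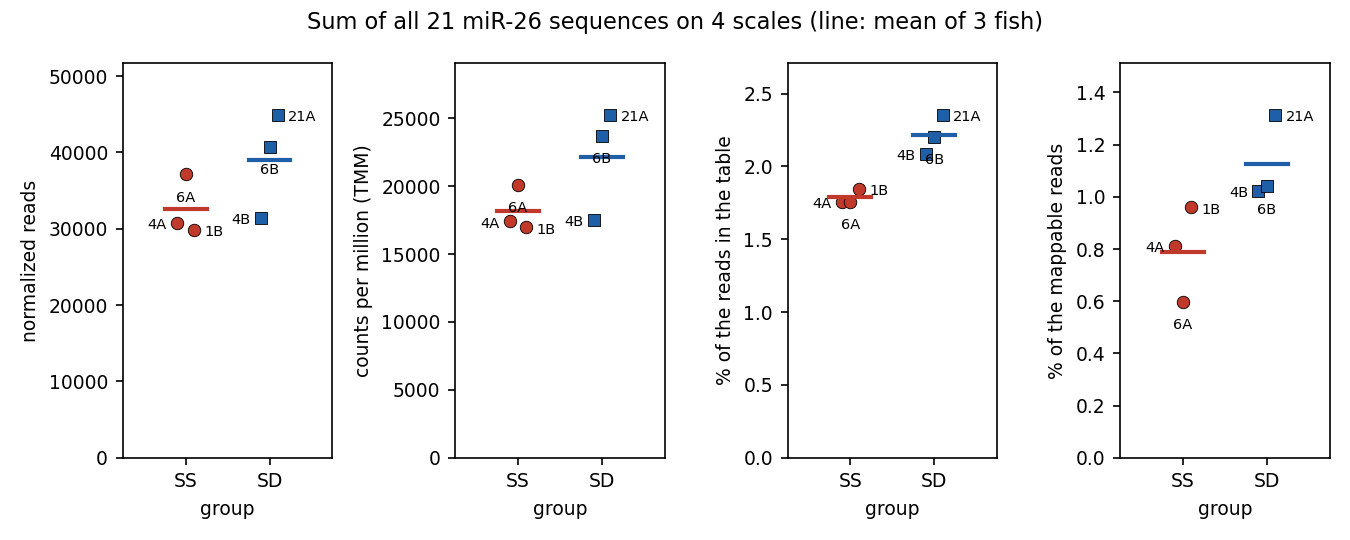
Sum of the 21 miR-26 sequences in each fish on 4 scales, with fish named by their label and a line at the mean of 3 fish. SS and SD fish overlap in normalized reads and in CPM, where SS 6A is above SD 4B, and do not overlap as a share of the table (highest SS fish 1.85%, lowest SD fish 2.09%) or of the mappable reads.

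By strand and letter, the 5 sums were, like that of the family, lower on average in SS fish in normalized reads, and none was past the test. The miR-26a 5p forms differed by -0.27 on the log2 scale (exact permutation test, p = 0.2), the miR-26b 5p forms by -0.11 (exact permutation test, p = 0.5) and miR-26d by -0.15 (exact permutation test, p = 0.7). Leaving out 1 fish moved the last from -0.38 without SS replicate 6A to -0.0042 without SS replicate 1B, and the miR-26b value from -0.22 without SS replicate 4A to -0.04 without SD replicate 21A. The miR-26b value rested on the shared 20-nt form, and without it the remaining 3 sequences gave a log2 difference of 0.17. The sum of the 5 miR-26a 3p sequences was 41.8, 41.8 and 29.5 in SS and 66.7, 44.6 and 44.0 in SD fish, so every SS fish was below every SD fish, with a log2 difference of -0.45. It was -0.25 without SD replicate 4B, and in percent of the table reads SS replicate 4A was above SD replicate 21A. That of miR-26b 3p was -0.42 with no overlap, but the groups overlapped in percent of the mappable reads. Over all 338 tested sequences, 7.69% had every SS value below every SD value in normalized reads. Both 3p sums reached p = 0.1, the smallest that the exact permutation test can give here, and 0.3 after adjustment over the 6 sums.

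Ratios between miR-26 forms of the same library do not depend on the size parameter, and in each of the 6 that were computed the SS and SD fish overlapped. The shared 20-nt form was 12.1%, 7.56% and 9.71% of full miR-26a-5p in SS and 9.77%, 8.08% and 8.21% in SD fish (exact permutation test, p = 0.7). The form with 2 more 3′ bases was 0.214% to 0.243% of full miR-26a-5p in SS and 0.209% to 0.320% in SD fish (exact permutation test, p = 0.9). miR-26d-5p was 0.307% to 0.406% of miR-26a-5p in SS and 0.310% to 0.324% in SD fish (exact permutation test, p = 0.6). Forms with extra 5′ bases, whose seed is shifted, were 0.206%, 0.143% and 0.182% of those with the usual start in SS and 0.182%, 0.125% and 0.135% in SD fish (exact permutation test, p = 0.2). After adjustment over the 6 ratios each p was 1.

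The share of the 3p strand was highest in SD replicate 4B. The 3p arm was 0.221%, 0.187% and 0.188% of the 5p arm in SS and 0.323%, 0.191% and 0.187% in SD fish (exact permutation test, p = 0.6). In SD replicate 4B the 3p arm took 0.324% of the family reads, with a 95% Clopper-Pearson interval from 0.257% to 0.403%. The intervals of SS replicates 6A and 1B and of SD replicates 6B and 21A ended below that lower bound, and that of SS replicate 4A ran from 0.177% to 0.274% and overlapped it. These intervals cover counting error only. Within the 3p arm, miR-26b reads were 62.1%, 65.5% and 90.3% of miR-26a reads in SS and 51.4%, 74.0% and 91.0% in SD fish (exact permutation test, p = 1).

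**Figure D4:**
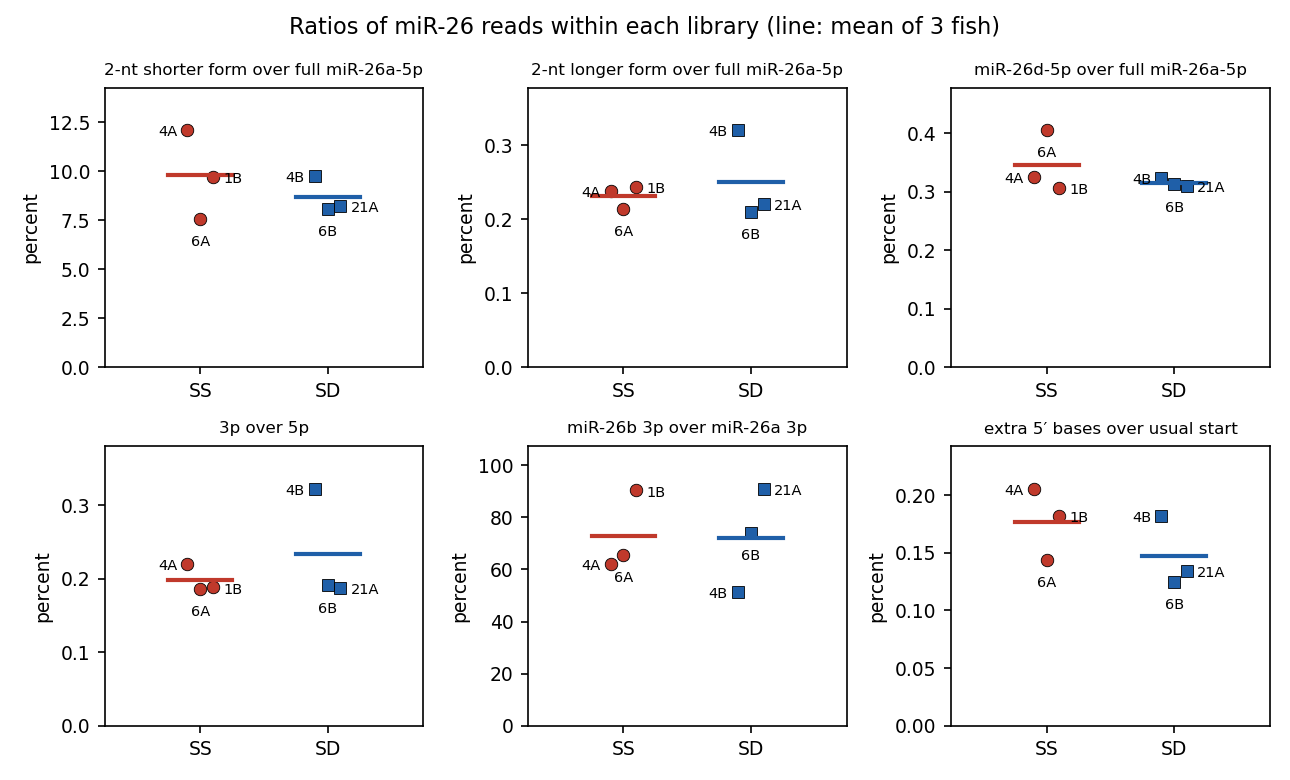
Ratios of miR-26 reads within each library, in percent, for 6 pairs of forms, with fish named by their label and a line at the mean of 3 fish. SS and SD fish overlap in every panel, and SD 4B stands highest for the 3p over the 5p arm (0.323%) and for the longer form over full miR-26a-5p (0.320%).

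Across the 6 libraries the members did not follow miR-26a-5p alike. In log2 CPM its Pearson r was 0.87 with miR-26d-5p, 0.71 with miR-26b-3p, 0.59 with dre-miR-26a-5p_R+2, 0.42 with the shared 20-nt form, 0.04 with miR-26a-3p and -0.57 with dre-miR-26b_L+1R-1. Outside the family the sequences most like it were ola-miR-22_R+1 with r = 0.99, fru-miR-125b_R-1 with 0.97, ipu-miR-212 with 0.95, dre-miR-181a-5p with 0.93 and dre-let-7d-5p with 0.93. The median over the 331 other tested sequences outside the family was -0.02. These values describe 6 libraries that share scaling and group, and carry no test. ssa-miR-26a-3p had only 15 to 43 reads per library and dre-miR-26b_L+1R-1 30 to 86, so their r values also hold counting error.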

How the data were processed

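Expected counts per library were deposited for 1389 sequences. The authors kept reads of 15 to 32 nt, removed other RNA classes and matched the rest to fish miRNAs of miRBase with Bowtie, version 1.1.1 by the submitters' processing notes. The authors' normalized reads are a signal made by dividing each count by a library size parameter, with 0 written as 0.001. Read counts per filtering step were also deposited and gave the mappable reads.

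Counts were rounded, filtered (filterByExpr, minimum count 10) and compared in R 4.3.3 with edgeR 4.0.16 (TMM, quasi-likelihood test, Benjamini-Hochberg over 338 sequences, threshold 0.05), and the procedure was tested on simulated data. The changes planted there were all larger than the fitted miR-26 changes, so that test does not cover changes of their size. The quasi-likelihood test gives no standard error or interval. Both were computed from each log2 fold change and its test statistic. Log2 values of the sums and of the ratios were compared by two-sided exact permutation tests in Python 3.11.15 with scipy 1.17.1. No pair of libraries of the same group agreed within sampling noise.

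Per-fish values were given for members tested or with at least 10 reads, and the 5 sequences with the highest r (prior count 2) and any with the same seed were named. Members, marker lists and tests were chosen with earlier results of these data known. Alternatives were DESeq2 1.42.0, limma 3.58.1 (log2 normalized reads plus 1 or 10), other scalings and filters, fractional counts, a replicate block and leaving out each library. Genome positions of the miR-26 genes were not used here.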

Additional observations from a re-analysis of the deposited data

How the results depend on the processing

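Of 222 values recomputed under an alternative, 8 turned direction. The 96 that are sums or ratios could not pass 0.05 with so few fish and the 16 that are counts of members had no direction, so only the 110 log2 fold changes could cross the threshold, and none did. No member was past the adjusted threshold under any of the 16 alternatives of the fit, in which the adjusted p of miR-26a-5p ran from 0.306 to 0.867 and its log2 fold change from -0.50 to -0.13. Its unadjusted p was 0.0228 without SD replicate 4B and 0.0323 with table totals in place of TMM, an alternative chosen after seeing the data, as were the shares of the table and of the mappable reads. Over all tested sequences the calls numbered 2 in the main fit and 18 of 1283 with no filter. There were 7 in DESeq2, 6 without SS replicate 6A, 1 with table totals and 1 without SD replicate 6B. Without SS replicate 1B, SD replicate 4B or SD replicate 21A there were 0. The numbers 4 and 6 in the fish labels are shared by an SS and an SD fish, but the labels do not say what they mark. Deviations from the group mean correlated at 0.154 for number 4 and at 0.451 for number 6. Fish of unlike number were not compared in this way, so these values cannot show whether the numbers mark pairs. Under the replicate block the group difference rests on the fish of numbers 4 and 6, since SS replicate 1B and SD replicate 21A share their number with no other fish. This setting therefore had little power to call any sequence, and it gave the -0.13 end of the miR-26a-5p range. With the replicate block 0 sequences and 0 members were called, and the log2 fold change of miR-26d-5p turned to 0.0536. Leaving out 1 library, that of dre-miR-26b_L+1R-1 ran from -0.0264 to 0.175, turning without SD replicate 6B. The log2 difference of the shorter form over miR-26a-5p ran from -0.0143 to 0.325, turning without SS replicate 4A. That of the longer form ran from -0.201 to 0.106 and that of 3p over 5p from -0.326 to 0.067, both turning without SD replicate 4B. That of miR-26b 3p over miR-26a 3p ran from -0.196 to 0.216, turning to -0.138 without SS replicate 1B and to -0.196 without SD replicate 4B. The miR-26b 5p sum turned to 0.17 without the shared form. In normalized reads the range was -0.401 to -0.143 for the family sum, -0.424 to -0.154 for miR-26a 5p, -0.223 to -0.0355 for miR-26b 5p and -0.476 to -0.337 for miR-26b 3p. Why these values turned was not tested beyond the samples or forms left out.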
